A study of Mus musculus with 12 samples.

Results

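The dorsal telencephalon of mouse embryos at E12.5 (embryonic day), the tissue that becomes the cerebral cortex, was compared between embryos labelled Qkf gt/gt and wild-type embryos. Qkf is another name of Kat6b, and gt is known as a gene-trap allele of it. The comparison took the 3 arrays of mutant and the 3 arrays of wild-type E12.5 tissue out of 12 arrays in the series. The other 6 hold dorsal cortex of adult males of 99 to 155 days and the same 2 genotypes, and they enter below only as a reference or in a shared fit. All animals were of strain 129/Sv, and no other allele and no treatment is given in the labels. Whether an array held 1 embryo or a pool is not stated. No 2 arrays of the same genotype shared both the parental cross and the sex pattern given below, so they do not repeat 1 embryo.

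Values were deposited as log2 expression per probe set, a group of short probes for 1 transcript, with a floor of 2.19. A probe set was kept where its log2 value was over 4 on at least 3 of the 6 embryonic arrays. This kept 21770 of 45037 probe sets, of which 18584 carry exactly 1 gene symbol, 504 several and 2682 none. They stand for 10578 genes, against 11449 when the same rule is applied over all 12 arrays. Only 42 probe sets passed through 1 group alone, 24 through the wild types and 18 through the mutants.

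KAT6B is an enzyme of the MYST family that acetylates histone H3 within a complex held together by BRPF scaffold proteins. Mice with little of it are known for a small cerebral cortex and few interneurons. At this stage the cortical wall holds dividing radial glia, which express Pax6, Lhx2 and Emx genes. It also holds intermediate progenitors with Eomes and the first neurons with Tbr1.

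Markers of the dorsal telencephalon were high on all 6 arrays, while several markers of other regions were at the floor. Lhx2, a selector of cortical identity, stood between 13.2 and 13.8 on the 6 arrays. Pax6 stood between 10.05 and 10.6, and Tbr1 between 10.6 and 10.8. Nkx2-1 of the medial ganglionic eminence, En1 and En2 of the midbrain and Hoxa2 and Hoxb2 of the hindbrain were at the floor on all 6 arrays. Other ventral markers were not at the floor. Lhx6 stood between 5.64 and 6.13 on the 6 arrays. On wild type 1 and mutant 1, Dlx2 read 9.04 and 8.43 and Gad1 read 7.86 and 7.34, and both were lower on the other arrays. Wild type 1 and mutant 1 came from one cross of parents, called the first here, and wild types 2 and 3 and mutants 2 and 3 from a second. Mutant 1 also belongs to a later array set by its array name, and its title alone ends in the letter r, whose meaning the labels do not give. The array set cannot be told apart from whatever else sets that array apart, and whether it is a repeat of an earlier hybridisation is not known here. Sex was not labelled: Xist was high on wild types 1 and 2 and mutant 3, and Y-linked genes were high on the other 3. Array pairs correlated at 0.988 to 0.995 over all probe sets on the array, with controls and those at the floor included.

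Kat6b was lower on every mutant array. Its brightest probe set, 1423508_at, read 11.28, 11.40 and 11.42 on the wild types and 6.22, 7.24 and 7.72 on the mutants. The mean went from 11.4 ± 0.0770 (SD, n = 3) to 7.06 ± 0.766 (SD, n = 3). The log2 difference was -4.31 (SE 0.38, 95% interval -5.24 to -3.38), and the groups lay far apart. A second probe set, 1447758_x_at, read 4.80, 5.24 and 5.03 on the wild types and 2.21, 2.21 and 2.19 on the mutants. The mutants were at or next to the floor there, so the log2 difference of -2.82 (SE 0.13) understates the change. The third, 1446189_at, was at the floor on all 12 arrays and gives no information. A signal remained on the brightest probe set in all 3 mutants, lowest on mutant 1 and highest on mutant 3. What part of the transcript these probe sets read relative to the insertion was not analysed here.

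Across all 21770 probe sets, limma on the 6 arrays called 3 at an adjusted p under 0.05, which is 0.0138%, and all 3 were lower in mutants. All 3 are among the probe sets that passed the filter through the wild types alone, and their shared direction is given as a description. With no filter on low values, 12 probe sets were called, these 3 among them. One of the 3 was Kat6b 1447758_x_at (adjusted p = 0.0063), which fell in all 3 mutants. Its adjusted p was 0.120 without wild type 3, and 0.067, 0.123 and 0.128 without mutants 1, 2 and 3. The brightest Kat6b probe set, whose mutant arrays spanned 6.22 to 7.72, had adjusted p = 0.181, and 0.038 without mutant 1. Without mutant 1, 3 probe sets were called, 2 of them among the 3. At an unadjusted p under 0.05, 281 probe sets (1.29%) were higher and 401 (1.84%) lower. In 687 probe sets (3.16%) every mutant array lay above every wild-type array, and in 957 (4.4%) every mutant array lay below. The median difference over all probe sets was -0.01, and the 5th and 95th percentiles were -0.38 and 0.33.

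The other 2 called probe sets have no gene in the annotation used, and they were chosen for the text by their values. Whether they lie in the Kat6b transcript was not analysed here, so they may or may not be separate from Kat6b. Probe set 1447258_at read 9.04, 9.28 and 9.07 on the wild types and 3.53, 3.75 and 3.80 on the mutants. It fell by 5.44 (SE 0.12, limma adjusted p = 0.000252). Probe set 1439980_at read 8.69, 9.33 and 9.03 on the wild types and 3.53, 3.65 and 3.66 on the mutants. It fell by 5.40 (SE 0.17, limma adjusted p = 0.0012). In adult cortex 1447258_at went from 5.96, 5.51 and 6.30 to 3.53, 3.46 and 3.26. Probe set 1439980_at went there from 5.04, 6.31 and 5.40 to 3.53, 3.54 and 3.61. Mutants of both stages thus stood at about the same low value, and the wild types were higher in embryos than in adults.

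**Figure D1:**
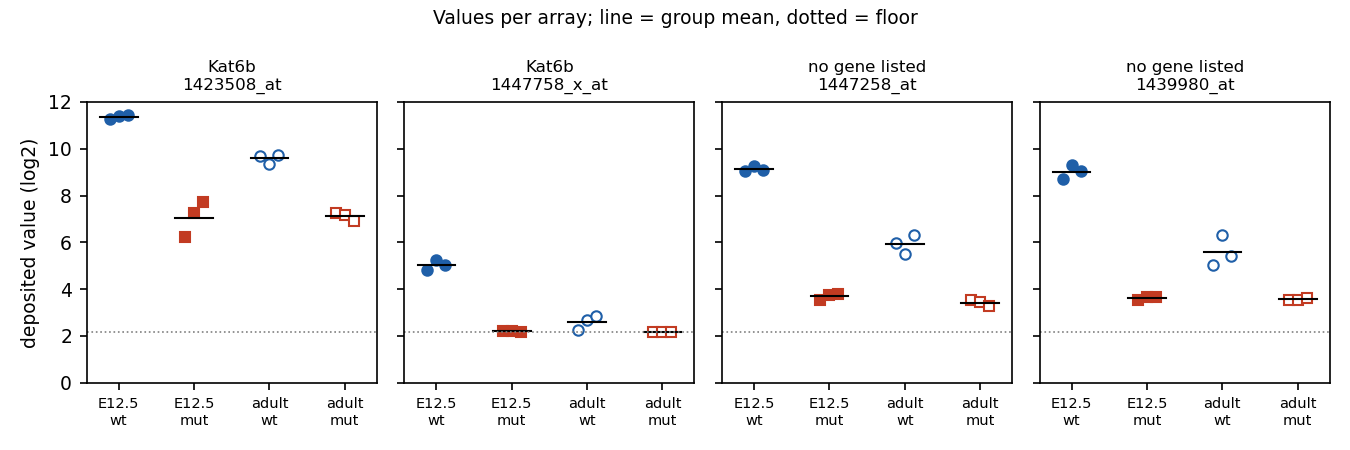
Deposited log2 values (vertical axis) of 2 Kat6b probe sets and of the 2 called probe sets with no gene listed, 1 point per array for E12.5 and adult wild types (wt, circles) and mutants (mut, squares), with group means as lines and the floor of 2.19 dotted. All 3 mutant points lie below all 3 wild-type points in every E12.5 panel, and 1447258_at goes from about 9.04 to 9.28 down to 3.53 to 3.80.

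With the adult arrays in the same fit, which adds residual degrees of freedom (8 in place of 4), limma called 17 probe sets in the embryonic contrast (0.0781%). Of these, 5 were higher and 12 lower. Of the 17, 8 passed the filter through the wild types alone and 4 through the mutants alone, so that these 12 had to differ and their directions are a description. The other 5 passed through both genotypes: Kat6b 1423508_at, Comtd1, Ube2ql1, Ifnar2 and the unnamed 1423153_x_at. The 17 include the 3 above and the brightest Kat6b probe set, and 6 of the 17 have no gene listed. The named ones higher in mutants were Comtd1, Nsmf, Ipo7 and Rpusd2. The named ones lower in mutants, besides Kat6b, were Sgms1, Ube2ql1, Ifnar2, Ezh1 and Jakmip1. Nsmf, Ipo7, Rpusd2, Sgms1, Ezh1 and Jakmip1 are among those that passed through 1 genotype. None of these 9 passed the test on the 6 embryonic arrays alone, where their adjusted p ran from 0.196 to 1. Some of the 17 barely varied over the adult arrays, which lowers their residual variance in the shared fit. Ipo7 1458165_at read 3.10 on all 6 adult arrays, 1457104_at 2.30 to 2.32 and Rpusd2 1453138_at 3.37 to 3.44. Others varied more there, such as Nsmf 1439398_x_at at 5.05 to 5.89.

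Comtd1, named for a catechol-O-methyltransferase domain, read 6.60, 6.56 and 6.55 on the wild types and 7.71, 7.61 and 8.09 on the mutants. The log2 difference was 1.24 (SE 0.14, 95% interval 0.88 to 1.59), a 2.35-fold higher level, with limma adjusted p = 0.264 on 6 arrays and 0.00378 on 12. The mutants lay well above the wild types, which differed by less than 0.1 among themselves. Ube2ql1, of the E2 ubiquitin-conjugating enzyme family, read 7.08, 6.89 and 6.85 on the wild types and 6.02, 6.002 and 5.82 on the mutants. Its log2 difference was -0.99 (SE 0.11; limma adjusted p = 0.264 on 6 arrays and 0.00437 on 12). Ezh1, a methyltransferase of Polycomb repressive complex 2, read 4.94, 4.94 and 4.49 on the wild types and 3.40, 3.07 and 3.72 on the mutants. Its log2 difference was -1.40 (SE 0.21; limma adjusted p = 0.744 on 6 arrays and 0.0156 on 12), and the mutant values were below the filter of 4.

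Several of the remaining named probe sets were dim, and other probe sets of the same gene had small differences or the opposite sign. Ipo7 1458165_at, of the nuclear import receptor importin 7, read 3.32, 3.21 and 3.17 on the wild types and 4.52, 4.78 and 5.14 on the mutants. Its other probe sets, 1442511_at and 1454955_at, differed by 0.01 and 0.08. Nsmf 1439398_x_at differed by 1.35, and 1436959_x_at and 1449474_a_at of the same gene by -0.26 and -0.20. Sgms1 1442079_at, of sphingomyelin synthase 1, read 4.41, 4.59 and 4.55 on the wild types and 3.57 on each mutant, while 1426576_at and 1436499_at differed by 0.24 and 0.20. Ifnar2 1440169_x_at, of an interferon receptor subunit, differed by -0.78, and 1427691_a_at and 1451462_a_at by -0.20 and 0.03. Rpusd2 1453138_at differed by 1.12 and 1439960_at by 0.23. For these 5 genes the call rests on 1 of several probe sets. Jakmip1 1441317_x_at, the only probe set of its gene that was kept, read 4.81, 5.84 and 4.77 on the wild types and 2.98, 3.40 and 3.56 on the mutants.

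Most probe sets of the genes near Kat6b on chromosome 14 had positive differences in embryos, and none passed the test on the 6 arrays. This set was chosen after its values had been seen, and the order of protein-coding genes comes from the RefSeq annotation. Adk, adenosine kinase, is the gene before Kat6b, and Samd8, Vdac2 and Comtd1 are the third, the fourth and the fifth after it. Dupd1 and Dusp13, in between, had no kept probe set. The promoters of Kat6b and of 3 of these neighbours are shown because they lie close together in gene order and Kat6b differed in the opposite direction to the others. They are RefSeq windows of 300 bases, 250 before and 50 after an annotated start, on build GRCm38.p6, 5′ to 3′ on the gene's strand. Capitals mark the GC box GGGCGG or its reverse complement CCGCCC, with overlapping matches counted. Of the 5 genes looked for, 4 had a window, and the first listed is shown for each.
Adk (chr14:21052324-21052623, plus strand): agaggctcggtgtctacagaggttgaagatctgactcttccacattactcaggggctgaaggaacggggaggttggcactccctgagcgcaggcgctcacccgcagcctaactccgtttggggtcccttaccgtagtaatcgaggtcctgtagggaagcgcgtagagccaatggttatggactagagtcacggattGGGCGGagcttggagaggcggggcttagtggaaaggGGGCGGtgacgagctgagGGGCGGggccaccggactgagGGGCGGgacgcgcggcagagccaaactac
Kat6b (chr14:21499520-21499819, plus strand): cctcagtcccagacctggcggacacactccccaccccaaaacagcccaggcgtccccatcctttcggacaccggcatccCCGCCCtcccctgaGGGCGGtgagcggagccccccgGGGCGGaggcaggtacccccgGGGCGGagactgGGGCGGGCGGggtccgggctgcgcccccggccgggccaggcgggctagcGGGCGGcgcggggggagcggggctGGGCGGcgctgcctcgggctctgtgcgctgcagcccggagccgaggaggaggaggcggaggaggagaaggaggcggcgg
Samd8 (chr14:21750281-21750580, plus strand): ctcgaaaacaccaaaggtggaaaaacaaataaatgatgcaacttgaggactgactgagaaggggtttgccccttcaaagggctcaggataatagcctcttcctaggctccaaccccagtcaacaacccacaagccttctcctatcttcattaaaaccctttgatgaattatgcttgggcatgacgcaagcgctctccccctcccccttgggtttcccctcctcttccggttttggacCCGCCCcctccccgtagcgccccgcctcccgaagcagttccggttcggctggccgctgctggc
Comtd1 (chr14:21848861-21849160, minus strand): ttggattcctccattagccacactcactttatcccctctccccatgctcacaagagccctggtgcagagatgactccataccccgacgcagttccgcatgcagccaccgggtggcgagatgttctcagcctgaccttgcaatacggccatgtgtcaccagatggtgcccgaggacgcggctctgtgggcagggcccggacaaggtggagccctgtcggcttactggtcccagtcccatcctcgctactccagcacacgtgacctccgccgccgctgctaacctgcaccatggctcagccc
The Adk window holds 4 GC boxes, the Kat6b window 8, the Samd8 window 1 and the Comtd1 window 0. Of all 32851 windows in the table, 35.7% hold at least 1. These matches describe the letters and no binding was measured.

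All 5 probe sets of Adk had positive differences. Adk 1416319_at read 8.56, 8.64 and 8.78 on the wild types and 8.99, 9.27 and 9.31 on the mutants, a log2 difference of 0.53 (SE 0.12). Adk 1438292_x_at read 11.30, 11.41 and 11.46 and then 11.65, 11.83 and 11.78, a difference of 0.36 (SE 0.10). In both, every mutant lay above every wild type. Probe sets 1446675_at and 1449641_at of Adk differed by 0.57 and 0.88 and were also apart. In 1446068_at mutant 3, at 5.59, lay below all wild types, and the difference was 0.43. Unadjusted p of the 4 that were apart ran from 0.0057 to 0.040, and adjusted p was 1 for each by limma. In adult cortex the 5 differences of Adk had a median of -0.04.

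Samd8, a sphingomyelin synthase-related gene, read 9.90, 10.20 and 10.04 on the wild types and 10.54, 10.73 and 10.68 on the mutants in 1434402_at. The groups did not overlap, and the log2 difference was 0.61 (SE 0.12, unadjusted p = 0.0021, limma adjusted p = 1). Its dimmer probe set 1458408_at differed by 0.66 with overlapping groups. Vdac2, a channel of the outer mitochondrial membrane, read 11.08, 11.11 and 11.17 and then 11.23, 11.27 and 11.47, a difference of 0.20. On the other side of Adk, Ap3m1 and Vcl had differences between -0.18 and 0.23, and Camk2g 0.13 and 0.17. Over the 10 genes within 5 places of Kat6b, 7 were measured by 16 probe sets. Of these 16, 13 were higher, 7 were higher with groups apart, 0 were lower with groups apart, and the median was 0.30. Over all kept probe sets, 3.16% were apart above and 4.4% apart below. Of the 7, 4 belong to Adk alone, so the 16 are not independent. Over the 40 genes 6 to 25 places away, 45 probe sets of 23 genes had a median of 0.01, with 25 higher, 1 apart above and 3 apart below. The adult medians of the same probe sets were 0.0011 near and 0.04 further away.

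**Figure D2:**
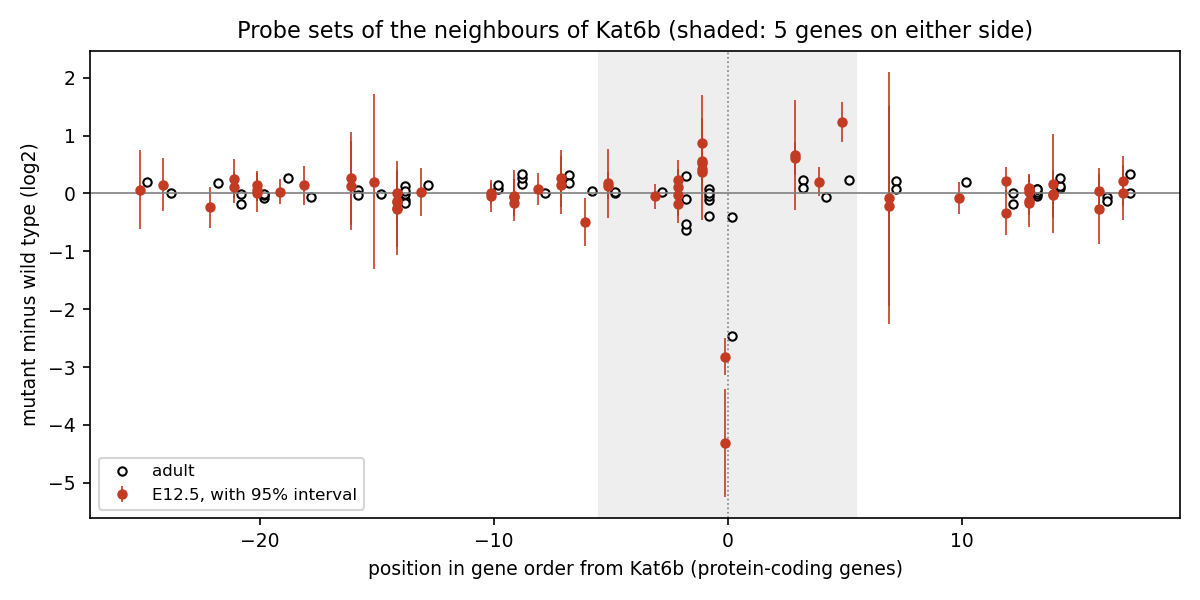
Log2 difference, mutant minus wild type (vertical axis), of each kept probe set by its gene's place in gene order from Kat6b (horizontal axis), with 95% intervals for E12.5 (filled) and adult differences without intervals (open). Kat6b stands at -4.31 and -2.82, and 13 of the 16 E12.5 points of the neighbours in the shaded area lie above 0, up to 1.24 for Comtd1.

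Few genes had all their probe sets apart in 1 direction. Of 4814 genes with at least 2 kept probe sets, 3 had all of them apart and higher in mutants. In 14, Kat6b among them, all were apart and lower. Over all kept single probe sets, 3.16% were apart above and 4.4% apart below. Of the 4814 genes, 1928 had at least 3 kept probe sets. Adk was the 1 gene with at least 4 probe sets apart above, and 0 genes had 4 apart below. These genes were picked by their values and their counts carry no test. Pgk1, a glycolytic kinase, had all 3 of its probe sets higher, by 0.17 to 0.26. Suclg2, a subunit of the citric acid cycle enzyme succinyl-CoA ligase, was higher by 0.23 and 0.28. Lower on both probe sets were Aph1b, a subunit of gamma-secretase, by differences of -0.81 and -0.80, and Ago4, an Argonaute protein, by -0.67 and -0.49. Jak2, a cytokine receptor kinase, differed by -0.45 and -0.37, and the sodium channel Scn2a by -0.75 and -0.22. Dnajc14 had all 3 of its probe sets lower, by -0.43, -0.41 and -0.18. Aph1b 1456500_at read 7.23, 7.10 and 7.45 on the wild types and 6.38, 6.72 and 6.28 on the mutants. None of these genes besides Kat6b passed the test in either fit.

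The other named probe sets had groups apart, and either the lowest p or the largest differences among such probe sets, and none passed the test on 6 arrays. Nptx2, a secreted pentraxin of excitatory synapses, read 5.41, 5.43 and 5.22 on the wild types and 6.17, 6.07 and 6.18 on the mutants. The difference was 0.79 (SE 0.10, limma adjusted p = 0.368), and in adults it was 0.0025. Gria3, an AMPA receptor subunit, read 5.86, 6.80 and 6.32 on the wild types and 5.14, 5.25 and 4.94 on the mutants, a difference of -1.22. Chl1, a neural adhesion molecule, read 7.34, 7.82 and 7.56 and then 6.94, 6.77 and 5.90, a difference of -1.04. Sybu, which links cargo to kinesin motors in axons, differed by -0.99. Zfp804a differed by -0.73 and the Wnt receptor Fzd6 by -0.94.

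On the chromatin side, Bcor 1452910_at, of a variant Polycomb complex subunit, read 6.53, 6.57 and 6.63 on the wild types. It read 6.16, 6.07 and 6.09 on the mutants, a difference of -0.47. The brighter Bcor 1428773_s_at and 1429438_at differed by -0.21 and -0.30, both with overlapping groups. Mta3 1421402_at, of the NuRD deacetylase complex, differed by -0.64, and by -0.63 in adults with groups apart. The brighter Mta3 1451352_s_at differed by -0.0088 in embryos, with overlapping groups. Bcat1 1430111_a_at, of a branched-chain aminotransferase, differed by 0.60, whereas the brighter 1450871_a_at differed by 0.08 and 1455699_at by 0.31, both with overlapping groups. P3h1, a collagen prolyl hydroxylase, differed by 0.67. Cyp2j9 differed by 1.27, Pde1c by 0.88 and Troap, a spindle protein, by 0.95. Csdc2 1437841_x_at differed by 0.84, while 1423845_at and 1451147_x_at of that gene differed by -0.12 and 0.39 with overlapping groups. Ptchd1 1457649_x_at differed by 2.32 and 1456681_at by 0.22, and Dnm3 1438801_at by 0.77. Cyp2j9, Dnm3 and Ptchd1 1457649_x_at passed the filter through the mutants alone. The remaining names are in the plot of named probe sets.

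**Figure D3:**
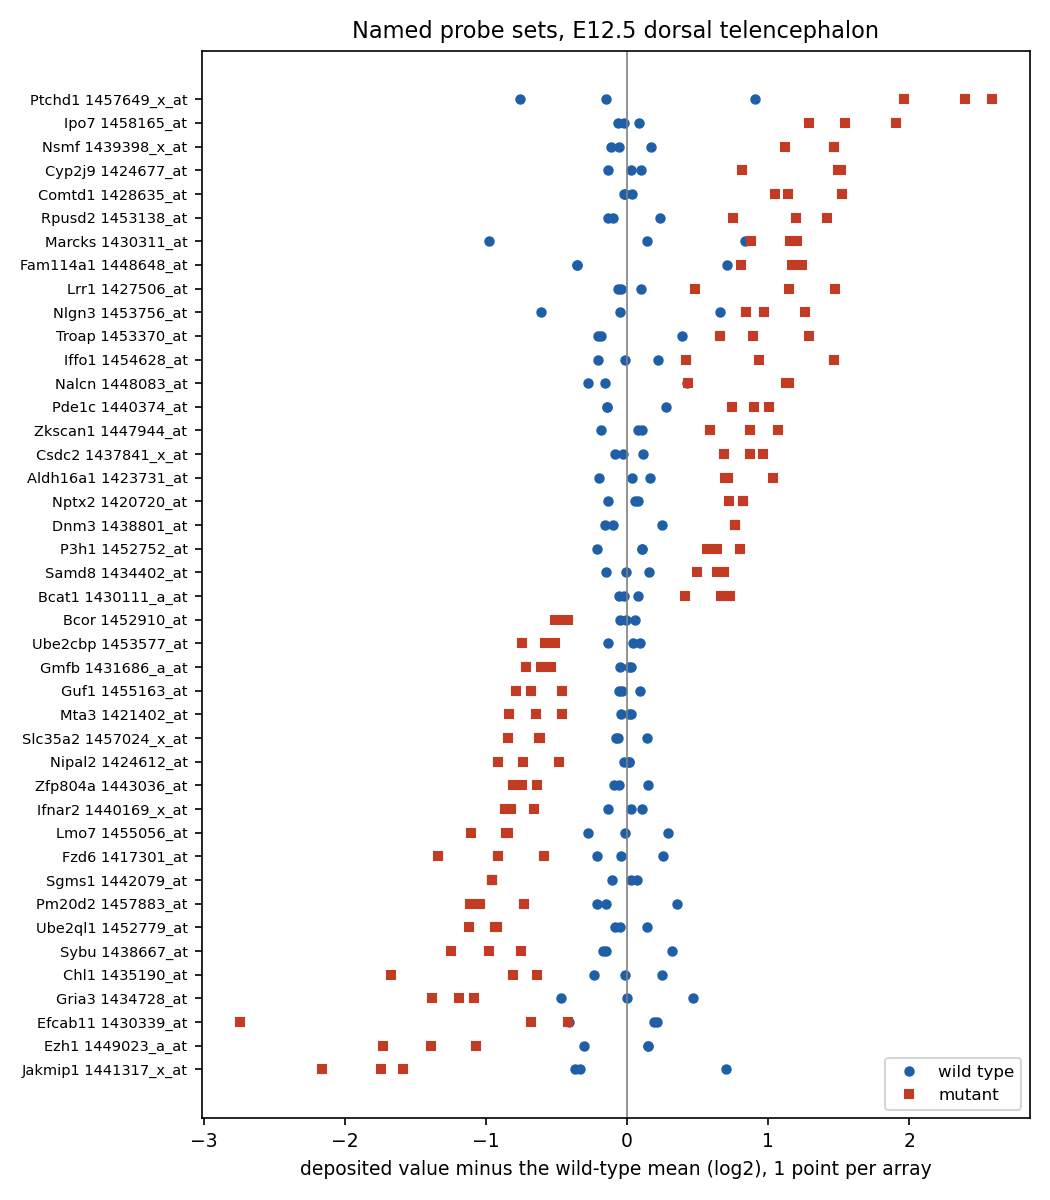
Deposited value minus the mean of the 3 wild types (horizontal axis, log2), 1 point per E12.5 array, wild types as circles and mutants as squares, for each named probe set other than Kat6b (vertical axis). Mutant and wild-type points do not overlap in any row because that was the condition for being named, and Comtd1 and Ube2ql1 show tight groups about 1.24 above and 0.99 below the wild types.

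The gene lists below hold markers and pathways. Each gene is represented by its brightest kept probe set, and 4893 of 10578 genes (46.3%) were higher in mutants. At this gene level 349 genes (3.3%) were apart above and 556 (5.26%) apart below, and 127 (1.2%) and 216 (2.04%) had an unadjusted p under 0.05 in each direction. No member of any list was called over all genes with this fit, Kat6b's brightest probe set included. The counts of members are descriptions beside these shares.

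In the list of MYST acetyltransferases and partners, 7 of 12 measured members were higher and 5 lower, with a median of 0.03, and 1 was apart on each side. Kat6b was the 1 member with an unadjusted p under 0.05. Of the other acetyltransferases and deacetylases, 8 of 22 were higher, with a median of -0.03 and 2 apart below. Of the Polycomb complexes, 9 of 27 were higher with a median of -0.02, and 3 were apart below, among them Ezh1 and Bmi1. Ezh1 passed the filter through the wild types alone, so it had to be apart below. Bmi1, a core subunit of Polycomb repressive complex 1, read 11.03, 11.18 and 11.00 on the wild types and 10.79, 10.94 and 10.71 on the mutants.

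Progenitor lists stood near even counts of higher and lower members, and the newborn neuron list held more lower ones. Of radial glia genes 16 of 28 were higher (median 0.01, 1 apart above and 2 below). Of intermediate progenitor genes 11 of 20 were higher (median 0.03, 1 apart on each side). Of newborn neuron genes 14 of 37 were higher (median -0.05, 0 apart). Lhx2 read 13.53, 13.74 and 13.79 on the wild types and 13.22, 13.41 and 13.33 on the mutants, a difference of -0.37 (SE 0.11, unadjusted p = 0.016). Every mutant lay below every wild type. Sox1, a neural progenitor factor, differed by -0.41 and Nr2e1, which keeps progenitors dividing, by -0.30, both with groups apart. Over the alternative settings the Sox1 difference ran from -0.53 to -0.32 and that of Nr2e1 from -0.37 to -0.011. In the dorsal patterning list, which holds Lhx2, 4 of 13 were higher, with a median of -0.13 and 2 apart below. Pax6 read 10.05, 10.38 and 10.30 and then 10.13, 10.14 and 10.59. Emx1 read 7.41, 8.11 and 8.16 and then 7.50, 7.68 and 8.11, and Tbr1 10.77, 10.79 and 10.65 and then 10.69, 10.58 and 10.61. The groups overlapped for Pax6, Emx1 and Tbr1. Of Cajal-Retzius genes, 7 of 9 were higher, with a median of 0.11 and 0 apart.

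In the cell cycle list, 28 of 46 members were higher, with a median of 0.06, 7 apart above and 2 apart below. Kif20a and Plk1, which act in mitosis, were 0.29 and 0.24 higher. Plk1 read 9.28, 9.42 and 9.44 on the wild types and 9.66, 9.54 and 9.66 on the mutants. Tyms, which makes thymidylate, and Cdk2 differed by -0.65 and -0.30 with groups apart. Of p53 targets and apoptosis genes, 6 of 16 were higher (median -0.07). Of ubiquitin-conjugating enzymes, 15 of 30 were higher (median -0.01), and Ube2ql1, Ube2h and Ube2w had an unadjusted p under 0.05, all with a negative difference. Over the alternative settings Ube2h ran from -0.47 to -0.11 and Ube2w from -0.44 to -0.07.

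In lists of neuronal function the share of higher members ran from 18.2% for voltage-gated channels to 43.5% for cadherins, beside 46.3% of all genes. Of voltage-gated channels 4 of 22 were higher (median -0.14, 3 apart below), of presynaptic genes 8 of 28 (median -0.11, 2 apart above and 3 below) and of glutamate receptors 7 of 21 (median -0.08, 2 apart below). Of axon guidance genes 11 of 38 were higher (median -0.06), of GABA-A receptors and chloride transporters 2 of 7 (median -0.10), of protein kinase A genes 7 of 20 (median -0.07) and of cadherins 10 of 23 (median -0.09). Kcnc1, a fast potassium channel, read 4.33, 4.27 and 4.69 on the wild types and 3.40, 3.68 and 3.79 on the mutants, so that it passed the filter through the wild types alone. Sv2a, a vesicle protein, read 6.87, 6.69 and 6.25 and then 6.07, 5.86 and 6.08. Rab3a, a vesicle GTPase, differed the other way, by 0.67. Prkar1b, a regulatory subunit of protein kinase A, differed by -0.91 and the guidance receptor Robo2 by -0.42. Over the alternative settings Prkar1b ran from -1.07 to -0.25 and Robo2 from -0.53 to -0.28. With probe sets over 6 only, the median of the channel list was -0.02. In bulk tissue, fewer cells of a type and less RNA per cell cannot be told apart.

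Among signalling lists, 13 of 18 FGF and ERK feedback genes were higher (median 0.15, 0 apart). Etv5, a transcription factor induced by FGF, differed by 0.81 with overlapping groups. Of Wnt genes 11 of 28 were higher (median -0.01), with 3 apart on each side. The secreted inhibitors Frzb and Wif1 were 0.52 and 0.68 higher, and Fzd6 and the Dkk co-receptor Kremen1 differed by -0.94 and -0.34. Wif1 read 7.40, 6.93 and 6.71 on the wild types and 8.10, 7.53 and 7.45 on the mutants. Of BMP and TGF-beta genes 10 of 23 were higher (median -0.02), and the receptor Acvr2b differed by 0.43.

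Markers of other cell types had median differences between -0.29 and 0.17. Of endothelial and pericyte genes, 19 of 22 were higher (median 0.12, 4 apart above and 1 below). Pecam1, which joins endothelial cells, read 4.19, 4.19 and 4.43 on the wild types and 5.03, 5.23 and 4.74 on the mutants, and Cdh5, their cadherin, differed by 0.32. The summed linear level of that list ran from 2248 to 2742 on the wild types and from 2590 to 2796 on the mutants, so that the groups overlapped. Of microglial genes 11 of 13 were higher (median 0.10), of mesenchyme and meninges genes 15 of 20 (median 0.10) and of erythroid genes 3 of 6 (median 0.09). Of astrocyte genes 5 of 14 were higher (median -0.02). Gfap, the astrocyte filament gene, read 3.95, 2.92 and 2.39 on the wild types and 5.22, 5.56 and 4.82 on the mutants. It passed the filter through the mutants alone, and its levels lay far below the 7.50 to 8.64 of adult cortex. Of the oligodendrocyte lineage 1 of 7 was higher (median -0.12), and of hem and choroid plexus genes 10 of 22 (median -0.0027). Of diencephalic, midbrain and hindbrain genes 6 of 29 were measured and 1 was higher (median -0.13), and of Hox genes only Hoxa5 was measured, with a difference of 0.17. Of ventral telencephalic genes 3 of 11 were higher (median -0.29). The part of these other cells in the named differences was not tested.

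**Figure D4:**
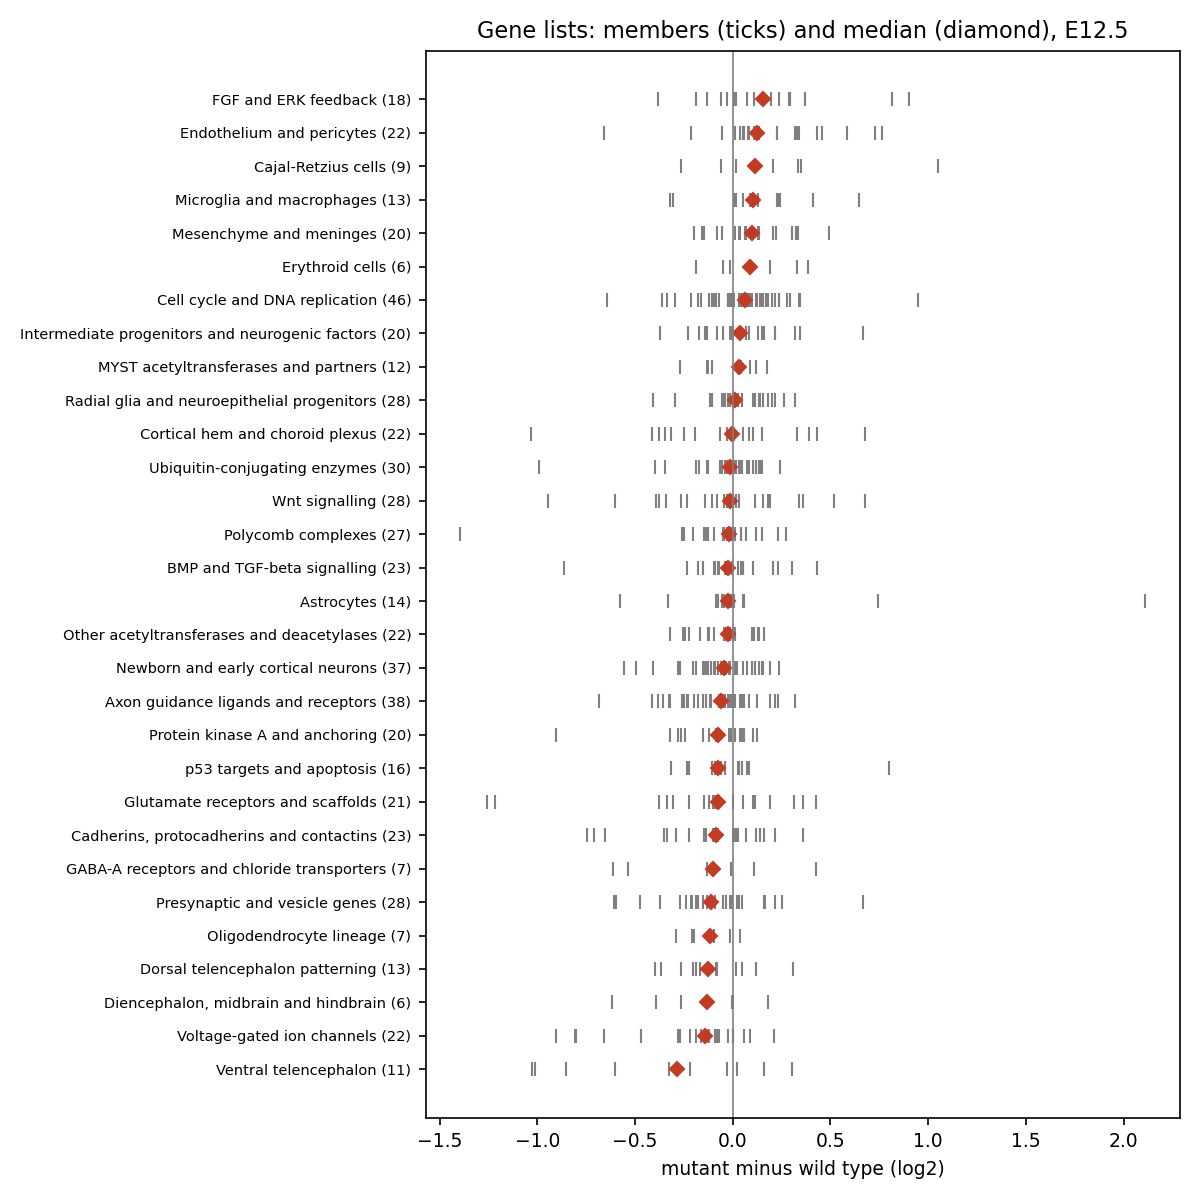
Log2 difference, mutant minus wild type (horizontal axis), of the members of each list (ticks, the brightest kept probe set of each gene, without Kat6b) and the list's median over all members (diamond), with the number measured in parentheses. The Hox list, with 1 gene measured, is not drawn, and the other medians lie between -0.29 for the ventral telencephalon and 0.15 for FGF and ERK feedback.

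More probe sets differed by over 1 log2 unit between the parental crosses than between the genotypes. With genotype and cross in 1 limma fit, a comparison of 2 arrays with 4 added after the data had been seen, 21 probe sets (0.0965%) were called between the crosses, 9 higher and 12 lower in the first. Counted by size over all probe sets tested, 267 were over 1 log2 unit higher and 323 lower in the first cross, against 39 and 39 for mutant minus wild type. Dlx2, of the ventral telencephalon, read 9.04 and 8.43 on wild type 1 and mutant 1, and 5.80, 3.20, 3.28 and 3.31 on wild types 2 and 3 and mutants 2 and 3. Gad1, the enzyme that makes GABA, read 7.86 and 7.34 and then 5.28, 3.74, 3.73 and 3.23 in the same order. Nr2f2 1444229_at, a factor of caudal and ventral regions, read 8.37 and 7.01 and then 4.72, 4.45, 3.89 and 3.85 (log2 difference 3.46, limma adjusted p = 0.028). The summed level of the ventral list was 4053 and 2790 in the first cross and 923 to 1156 in the second, so this list moved with the cross.

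The opposite direction held Ttr, the main transcript of choroid plexus, at 10.8 on both arrays of the first cross and 13.5 to 14.1 on those of the second (limma adjusted p = 0.028). Lox and Htra1 were at or near the floor in the first cross, with 2.19 and 2.19 for Lox and 2.49 and 2.47 for Htra1. In the second cross they stood between 5.28 and 5.89. Aldoc, an aldolase of radial glia and astrocytes, read 7.43 and 8.93 in the first cross and 11.2 to 11.7 in the second. Neurog2, which starts glutamatergic neurogenesis, read 11.19 and 11.17 in the first cross and 12.18, 12.18, 11.96 and 12.18 in the second. Eomes read 10.62 and 10.64 and then 11.59, 11.41, 11.40 and 11.43. Dlx2, Gad1, Aldoc, Neurog2 and Eomes did not pass the test between crosses, with limma adjusted p of 0.093, 0.073, 0.051, 0.064 and 0.066. For all 4 of Dlx2, Ttr, Neurog2 and Eomes the genotype difference changed sign when 1 array was left out. The Ttr difference, for example, was 0.48 without wild type 2 and 0.98 without mutant 1. The first cross holds 1 array of each genotype and cross and dissection cannot be told apart.

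**Figure D5:**
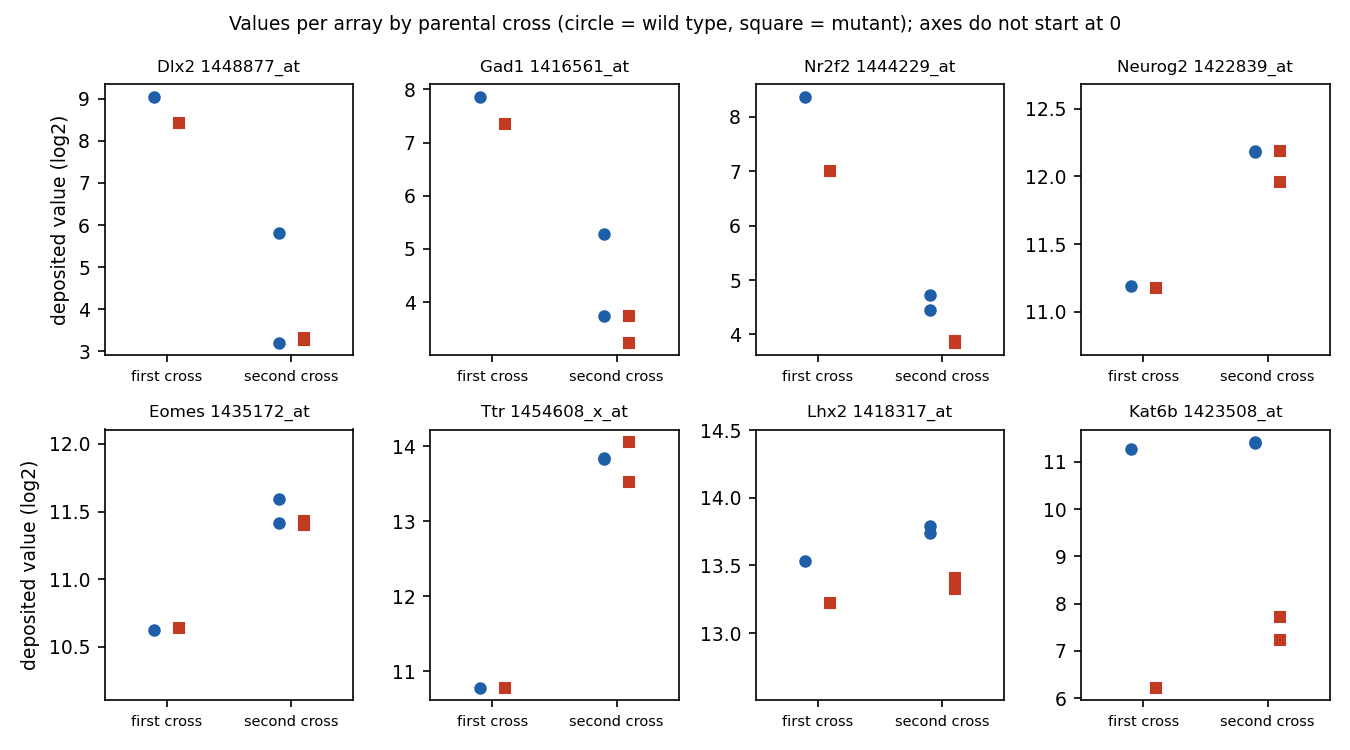
Deposited log2 values (vertical axes, not starting at 0) of 8 probe sets by parental cross (horizontal axes), 1 point per E12.5 array, wild types as circles and mutants as squares. Dlx2, Gad1, Nr2f2, Neurog2, Eomes and Ttr separate by cross, with Dlx2 at 8.43 to 9.04 in the first and 3.20 to 5.80 in the second, while Lhx2 and Kat6b separate by genotype within each cross.

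The mutant effect in embryos differed from that in adults for 5 of 21770 probe sets (0.023%, limma interaction term over 12 arrays, adjusted p under 0.05), 1 higher and 4 lower. These were Kat6b 1447758_x_at (-2.42), the unnamed 1447258_at (-2.93) and 1439980_at (-3.37), Ifnar2 1440169_x_at (-1.43) and Ipo7 1458165_at (1.58). All but Ifnar2 passed the filter through 1 embryonic genotype alone, so the sign of their embryonic difference was fixed by it. On Kat6b 1447758_x_at the adult wild types also lay near the floor, at 2.24, 2.66 and 2.86, which limits the adult difference. Ifnar2 1440169_x_at differed by -0.78 in embryos and by 0.65 in adults. Ipo7 1458165_at was near 3.10 on all 6 adult arrays, close to its embryonic wild-type values. For the other named probe sets called in the 12-array fit the adult differences were -0.03 to 0.23, except -2.47 for Kat6b 1423508_at, -0.37 for Nsmf and -0.08 for Sgms1. Their difference between stages did not pass the test.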

How the data were processed

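The report covers 6 of 12 Affymetrix arrays. Total RNA was precipitated from guanidine hydrochloride, amplified over 2 cycles and biotin-labelled, per the labels' protocols. The authors deposited log2 values that the submitters' processing notes tie to GCRMA, which models background from probe sequence; its version and settings are not stated in the sources used here. Values were used as deposited, with 28.7% to 29.0% of each embryonic array at the floor, which shrinks differences of dim probe sets. Names came from the platform annotation, updated by gene ID for 34754 probe sets. Each probe set was fitted with limma 3.58.1 in R 4.3.3 (lmFit, eBayes, Benjamini-Hochberg, called under 0.05) on 6 arrays with 4 residual degrees of freedom, since 288 kept probe sets lie at the floor on all adult arrays; the 12-array fit is an alternative and gives the difference between stages. The fit was tested on simulated data. All p-values and SEs are limma's, with 3 arrays per group limiting the precision.

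Members, lists and tests were chosen with earlier results of these data known. Named are all Kat6b probe sets, called ones, up to 15 genes each way with the lowest p and 8 each way with the largest difference among probe sets with groups apart, and up to 4 members per list with the lowest p plus tissue markers; other names were chosen after their values were seen. The labels name the parents, and deviations from group means over probe sets correlated at 0.43 within the first cross, at 0.11 to 0.19 within the second and at -0.30 to -0.19 between crosses for arrays of opposite genotype; these are tied to each other. With the cross as a block, the embryonic test called 3 probe sets, as without it.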

Additional observations from a re-analysis of the deposited data

Results flagged for a closer look

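The mutant effect differed between embryos and adults, by limma's interaction term over 12 arrays, for 5 probe sets. For 1447258_at, with no gene listed, the embryonic effect was more negative by a difference of -2.93, and for 1439980_at, likewise unnamed, the difference was -3.37. For Kat6b 1447758_x_at it was -2.42, with the mutants of both stages at or near the floor. The adult wild types were near the floor too, at 2.24, 2.66 and 2.86, which limits the adult difference. For the brightest Kat6b probe set, 1423508_at, the difference between stages was -1.84 and did not pass the test (limma adjusted p = 0.544). For Ifnar2 1440169_x_at it was -1.43. Other probe sets of that gene, 1427691_a_at and 1451462_a_at, differed by -0.20 and 0.03 in embryos and by 0.72 and 0.09 in adults. Their differences between stages were -0.92 and -0.06 and did not pass the test. For Ipo7 1458165_at the difference between stages was 1.58, at a dim probe set that passed the filter on low values through the embryonic mutants alone. The call of 1439980_at held under 9 of 17 alternatives, that of Ifnar2 under 10 and that of Ipo7 under 6. Those of 1447258_at and Kat6b held under all 17. Probe sets 1447258_at, 1439980_at and Kat6b 1447758_x_at passed the filter through the embryonic wild types alone. Their negative embryonic difference was thus fixed by the filter, and these counts are a description. Each array was left out in turn, with the counts given below, and no separate test for outlying arrays was made.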

How the results depend on the processing

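The count of probe sets called between mutant and wild-type embryos was 3. It was 12 with no filter on low values, 17 in the fit over all 12 arrays and 15 with array weights, each including the 3. It was 0 by limma with 1 probe set per gene, where 389 had an unadjusted p under 0.05, 1 with the probe sets of a gene averaged, where probe sets without a gene drop out, and 0 with the second cross alone, which has 2 arrays a group and where 1023 had an unadjusted p under 0.05. Leaving out 1 array gave 2 to 3. Other settings gave 2 to 4. With the parental cross as a replicate block the same 3 were called, and 1022 in place of 682 had an unadjusted p under 0.05. The difference between stages was called for 5 probe sets. It was called for 15 with no filter, 2 with cross and age pair as replicate block, 3 with trend and robust in eBayes, and 2 to 11 when 1 array was left out. The highest was without mutant 1, and 2 were called without embryonic wild type 3, embryonic mutant 2, adult wild type 3, adult mutant 1 or adult mutant 3. The cause was not tested.

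Of 1680 values of 88 named probe sets, 1615 kept direction and call, 28 gained a call, 9 lost one and 28 changed sign. Only 3 of the 88 were called in the main fit, so keeping the call mostly meant staying uncalled. Many were named for groups that lay apart, and leaving out 1 array could not change their sign. Where the brightest probe set stood for the gene, the difference was -0.26 for Nsmf, -0.89 for Aldh16a1, -0.019 for Zkscan1, -0.14 for Marcks, -0.044 for Lrr1, -0.24 for Nlgn3, -0.058 for Nalcn, 0.20 for Sgms1 and 0.032 for Ifnar2, each against the sign of its named probe set. With averaged probe sets it was -0.037 for Aldh16a1 and 0.32 for Emx1. It was -0.15 for Pax6 with array weights and 0.030 for Ttr with the sex pattern as a covariate. When 1 array was left out, differences ran from -0.37 to 0.00699 for Emx1, from -0.17 to 0.043 for Emx2, from -0.10 to 0.13 for Pax6, from -0.41 to 0.22 for Neurog2, from -0.35 to 0.21 for Eomes, from -2.72 to 0.50 for Dlx2 and from -1.05 to 0.98 for Ttr. Of 619 list medians, 15 moved by more than the spread between arrays. Dim probe sets limit what the arrays can show.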

Other observations

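Of the 17 probe sets called in the embryonic contrast of the 12-array fit, 4 more have no gene listed, and they were chosen after their values were seen. Probe set 1423153_x_at read 6.10, 5.91 and 6.14 on the wild types and 4.99, 4.83 and 5.10 on the mutants, a difference of -1.08. Probe sets 1440946_at and 1457104_at differed by -0.76 and -1.18, and 1457578_at by 1.58. In adults 1423153_x_at, 1440946_at, 1457104_at and 1457578_at differed by -0.07, 0.13, -0.0018 and 0.07 in that order.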
